A study of Homo sapiens with 4 samples.

Results

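The comparison described here is that of histidine combined with 6-mercaptopurine (6-MP) against vehicle in Reh-6-MPR cells. Reh is an established human line of B-cell precursor acute lymphoblastic leukemia, and Reh-6-MPR is a derivative of it that was made resistant to 6-MP. All libraries came from this resistant line with wild-type genotype, and each came from cells collected after 48 h. The vehicle cells received PBS, the combined cells received histidine at 4 mM together with 6-MP at 1.0 μg/mL, and the other 2 libraries, 1 each, came from cells given histidine at 4 mM alone or 6-MP at 1.0 μg/mL alone. There was 1 library for each treatment, so no difference has a replicate check, no p-value is given, and the difference between the treatments cannot be told apart from a difference between the libraries. The experiment asked which genes take part when the resistant cells meet both agents. A single resistant line was profiled, so nothing here speaks of the parental line or of other leukemias. Of the 29833 genes in the table, 15471 were protein-coding, and the 9997 of these with a mean FPKM (fragments of a gene scaled by gene length and library total) of at least 1 over the 4 libraries were compared. The comparison value of a gene is the difference of log2(FPKM + 1) between the combined and the vehicle library, called the log2 difference below. A gene was counted as higher or lower where that difference was at least 1 or at most -1, a change of the shifted value by a factor of 2 or more. Because 1 is added to each FPKM, the log2 difference understates the contrast of genes with low FPKM. The ratio of reads recovered from the FPKM values is therefore given beside it for many genes, with an exact Clopper-Pearson 95% interval that covers counting error only.

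As background, 6-MP is a purine analogue that cells convert into thioguanine nucleotides, which enter DNA and lead to mismatch-repair dependent damage signalling, while its methylated products block purine synthesis. Histidine is broken down through a pathway that uses tetrahydrofolate, the one-carbon carrier on which purine synthesis also depends. Damaged DNA activates p53, a transcription factor that switches on genes for cell-cycle arrest, repair and apoptosis, and arrest lowers the genes of mitosis that the DREAM complex represses through promoter elements. MYC drives ribosome production, and the SREBP factors drive cholesterol and fatty acid synthesis.

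The reads behind the values ranged from 12899122 in the combined library to 15486376 in the histidine library, with 14316493 in vehicle. The combined library stood apart from the other 3 in several respects. It had 25443 genes above 0, against 23635 to 23978 in the others, although it was the shallowest. Long noncoding RNA took 2.05% of its reads, against 1.44% to 1.52% in the others. The 13 protein-coding mitochondrial genes took 1.80% of its reads, against 2.69% to 2.91%. All 11 B-lineage markers in the table were above 1 FPKM in every library, and their summed FPKM was 1764 in the combined library and 1864 to 1979 in the others. The 5 markers of T and NK cells in the table summed to 36.1 FPKM in the combined library and to 13.4 to 15.05 in the others, mostly from TRAC, and CD8A and GNLY were at 0 in vehicle. The 6 myeloid markers in the table summed to 62.9 FPKM against 30.1 to 34.3, mostly from MPO and ITGAM. Of the 6, 4 were at or above 1 FPKM in the combined library and 2 in each other library. CD14 was at or under 0.17 FPKM and CD68 at or under 0.03 FPKM in both libraries compared. The 4 erythroid and platelet markers summed to 0.67 FPKM in both, and the 4 stromal and epithelial markers to 2.17 FPKM against 0.87. The part of these differences in the results was not tested.

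The combined library differed from vehicle at 422 of the 9997 genes (4.22%), of which 346 were higher (3.46%) and 76 lower (0.76%). The same rule counted 19 genes (0.19%) with histidine alone, 15 higher (0.15%) and 4 lower (0.04%), and 15 genes (0.15%) with 6-MP alone, 12 higher (0.12%) and 3 lower (0.03%), both set against the same vehicle library. At a threshold of 1.5 the combined library had 98 higher (0.98%) and 12 lower genes (0.12%), and at 0.5 it had 1646 (16.5%) and 612 (6.12%). Over all genes the median log2 difference was 0.11, with quartiles of -0.14 and 0.37 and a range from -2.27 to 3.07, against medians of 0.010 with histidine and 0.0058 with 6-MP. The 346 higher genes had median log2 differences of 0.091 with histidine and 0.075 with 6-MP, and the 76 lower genes had -0.049 and -0.076. Of the higher genes, 5 were also past the threshold upward with histidine and 5 with 6-MP, and of the lower genes 0 were with histidine and 1 with 6-MP. The read interval excluded 0 for 7073 of the 9997 genes (70.8%). It lay wholly on the called side of 0 for all 346 higher and all 76 lower genes. That was nearly fixed, since the calls come from the same reads. It lay wholly beyond 1 for 298 of the 346, and wholly below -1 for 63 of the 76. Just inside the threshold lay TMCO4, with 3.99 FPKM in vehicle and 8.99 in the combined library, and GSTA4, with 7.48 and 3.21. Just outside lay ZNF581, with 17.6 and 36.3 FPKM, and CKS2, with 195 and 97.2.

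**Figure D1:**
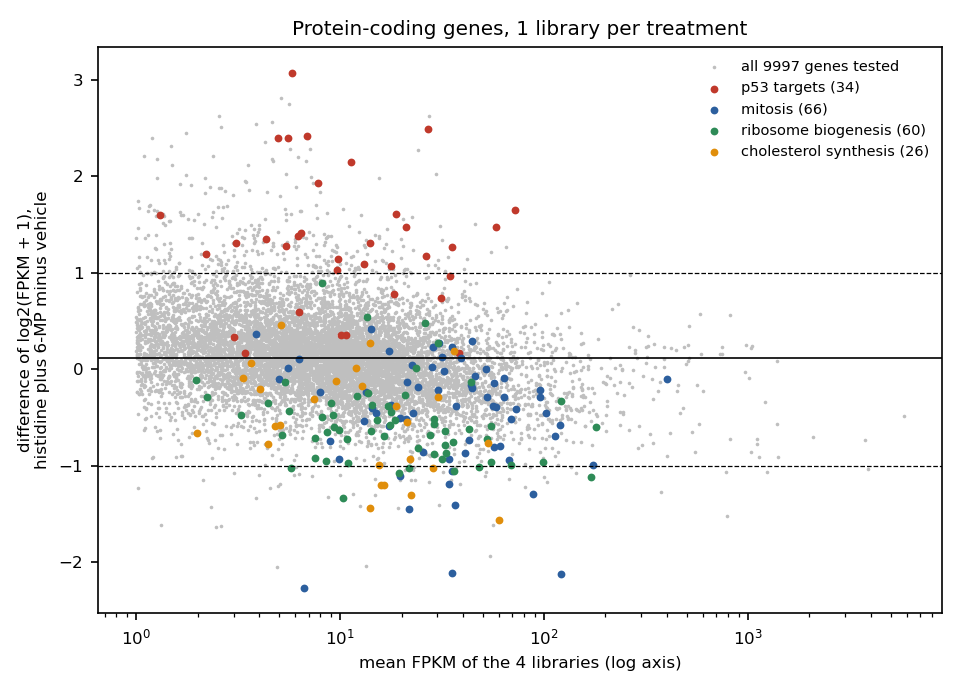
Log2 difference of the combined library against vehicle (y axis) over the mean FPKM of the 4 libraries (x axis, log scale) for the 9997 protein-coding genes, with 1 point per gene, 4 gene groups described below in colour, a solid line at the median of all genes and dashed lines at -1 and 1. The 346 higher genes lie mostly at low FPKM and the 76 lower genes mostly at high FPKM.

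The balance of higher and lower genes depended on the level of a gene and on the scaling. The median vehicle level was 2.64 FPKM for the higher genes, 26.0 for the lower genes and 8.09 for all genes. At least 10 FPKM in vehicle was reached by 48 of the 346 higher and 57 of the 76 lower genes. Of the 2500 genes with the lowest mean FPKM, 6.04% were higher and 0.28% lower, with a median log2 difference of 0.25. Of the 2499 with the highest mean FPKM, 1.44% were higher and 1.84% lower, with a median of -0.077. Of the 346 higher genes, 59 had a mean FPKM under 1 in the other 3 libraries and so entered the comparison only through the combined library. Scaling the libraries by the median ratio over the 19624 genes above 0 in all of them, which shifts the combined library against vehicle by 0.24 on the log2 scale, gave 204 higher and 183 lower genes. The same scaling over the 9997 compared genes, which shifts it by 0.13, gave 254 and 120. Higher genes thus made up 82.0% of those past the threshold as deposited, 52.7% with the wide scaling and 67.9% with the narrow one. Gene groups are therefore read below against the median of all genes, 0.11, and not against genes of like level. The highest bin of mean FPKM held 51 of the 66 mitosis genes compared, 24 of 29 chaperone genes and 70 of 78 cytosolic ribosomal protein genes. It held 12 of 34 p53 targets. The part of level in the group medians was not tested.

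**Figure D2:**
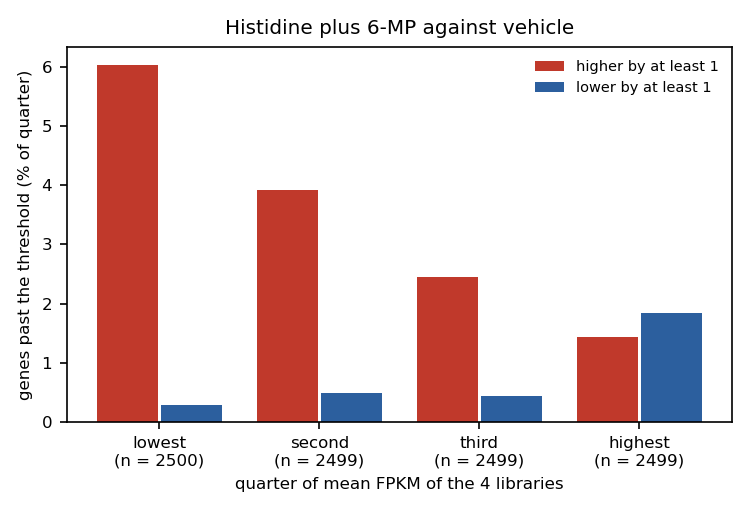
Share of genes past the threshold in 4 bins of mean FPKM of 2499 or 2500 genes, from lowest to highest (x axis), in percent of the genes of that bin (y axis), higher and lower genes separately. The share of higher genes goes from 6.04% in the lowest bin to 1.44% in the highest, while the share of lower genes is largest, 1.84%, in the highest bin.

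Each group count below is to be read beside the shares over all genes, 3.46% higher, 0.76% lower and 6.12% lower by at least 0.5. Of all 9997 genes, 6246 were above 0. The members of the groups were chosen with earlier results of these data known, so the counts describe and do not test. The genes known to be activated by p53 stood highest of the 42 gene groups. Of 40 listed targets, 34 were measured above the level limit. All 34 lay above the median of all genes, 25 were higher by at least 1 and none lower, and their median log2 difference was 1.29. With the level limit set on the histidine and 6-MP libraries 24 were higher. The same 34 genes had medians of -0.022 with histidine and -0.0078 with 6-MP against the shared vehicle library. PHLDA3, which restrains AKT signalling and is encoded on chr1:201464278-201469237 (GRCh38), had the highest value of any gene. It measured 1.34 FPKM in vehicle, 1.51 with histidine, 1.85 with 6-MP and 18.6 with both. The combined library stood far above the other 3, with a log2 difference of 3.07 and a read ratio of 13.96-fold (log2 3.80, 95% interval 3.43 to 4.20, from 62 and 780 reads). BTG2, an antiproliferative gene, measured 12.1, 10.6, 12.8 and 72.4 FPKM in vehicle, histidine, 6-MP and combined libraries (log2 difference 2.48). TP53INP1, a stress protein of p53 signalling and autophagy, measured 2.74, 2.55, 3.14 and 18.9 FPKM in the same order (2.42). Both had the same shape, with the single agents close to vehicle and the combined library alone apart. PLK2, a polo-like kinase induced by stress, measured 1.89, 1.92, 1.70 and 14.2 FPKM (2.40).

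Further members of the p53 group covered its arrest, repair and nucleotide arms. CDKN1A, which encodes the cyclin-dependent kinase inhibitor p21, measured 48.6 FPKM in vehicle, 42.8 with histidine, 41.4 with 6-MP and 155 with both (log2 difference 1.65, read interval 1.60 to 1.75). RRM2B, the p53-inducible small subunit of ribonucleotide reductase, measured 7.22, 7.25, 7.39 and 17.2 FPKM in that order (1.14). XPC, a damage sensor of nucleotide excision repair, measured 7.40, 7.54, 7.38 and 16.1 FPKM (1.03). For all 3 genes only the combined library departed from vehicle, although RRM2B and XPC no longer reached a difference of 1 under the wide median-ratio scaling. MDM2, chosen for naming after its values were seen, encodes the ubiquitin ligase that degrades p53 and is itself a known target. It measured 37.1, 34.6, 39.3 and 41.7 FPKM (log2 difference 0.16), close to the median of all genes. The group of cell-cycle brakes, which includes CDK inhibitors, BTG and TOB proteins and pocket proteins, was less uniform. Of its 19 measured members 3 were higher and none lower, with a median of 0.26. These 3 were BTG2, CDKN1A and CDKN2D, the CDK4/6 inhibitor p19, which measured 13.5, 18.5, 15.2 and 33.9 FPKM (1.27).

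The BCL2 family, which sets the threshold of mitochondrial apoptosis, had 4 higher and no lower genes among 15, with a median of 0.39. All 4 encode BH3-only proteins, which promote apoptosis. BBC3, encoding PUMA, measured 2.06 FPKM in vehicle, 2.21 with histidine, 2.82 with 6-MP and 15.2 with both (log2 difference 2.40). BMF measured 1.49, 1.25, 1.45 and 6.36 FPKM (1.57), and HRK 2.48, 2.86, 2.55 and 9.23 FPKM (1.56). PMAIP1, encoding NOXA, measured 19.5, 19.7, 21.1 and 45.2 FPKM (1.17). In each of the 4 genes the single-agent libraries lay near vehicle. PMAIP1 was under the threshold with the wide median-ratio scaling, which left 3 higher.

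The group of leukocyte adhesion and homing genes had 4 higher and no lower among 18, with a median of 0.52. Of these 4, ITGB2 and RGS16 had a mean under 1 FPKM in the other 3 libraries and reached the level limit only through the combined library, and with the limit set on the histidine and 6-MP libraries 2 were higher. CCR7, the chemokine receptor that guides lymphocytes to lymph nodes, measured 1.67 FPKM in vehicle, 2.24 with histidine, 1.51 with 6-MP and 17.0 with both (log2 difference 2.75). ITGB2, the β2 integrin chain, measured 0.529, 0.733, 0.503 and 8.42 FPKM (2.62, from 52 vehicle and 746 combined reads). ITGAM, an α chain that pairs with it and also a myeloid marker, measured 3.14, 3.16, 3.06 and 19.2 FPKM (2.28). These 3 genes separated the combined library from all others by more than any gap among the others. RGS16, a regulator that dampens chemokine receptor signalling, had 2 reads in vehicle, 3 with histidine, 3 with 6-MP and 142 with both. Its read ratio was 6.30 on the log2 scale with an interval from 4.42 to 9.36, wide because of the few vehicle reads.

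The other members of the 15 highest came from varied families, and RCN3 and SEMA5B among them also reached the level limit only through the combined library. FCGRT, the heavy chain of the neonatal Fc receptor that salvages IgG, measured 1.34 FPKM in vehicle, 1.39 with histidine, 2.41 with 6-MP and 15.4 with both (log2 difference 2.81). IGFBP4, a secreted binder of insulin-like growth factors, measured 10.7, 11.2, 16.2 and 71.5 FPKM (2.63), and APOBEC3H, an antiviral cytidine deaminase, 1.62, 1.19, 1.20 and 14.5 FPKM (2.57). FCGRT and IGFBP4 were above vehicle already with 6-MP alone, by 0.54 and 0.55. CD82, a tetraspanin, measured 1.14, 1.69, 1.13 and 11.4 FPKM (2.54), and RCN3, a calcium-binding protein of the endoplasmic reticulum, 0.697, 0.379, 0.651 and 8.65 FPKM (2.51). SEMA5B, a semaphorin, measured 0.0984, 0.0607, 1.87 and 5.01 FPKM (2.45), from 12, 8, 244 and 550 reads, so that the 6-MP library lay between vehicle and the combined one. INAFM1 measured 1.42, 7.08, 7.61 and 11.7 FPKM (2.40). There the vehicle library was the one that stood apart, with 17 reads against 92 to 127 in the others, and the contrast does not separate the combined treatment from the single agents.

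**Figure D3:**
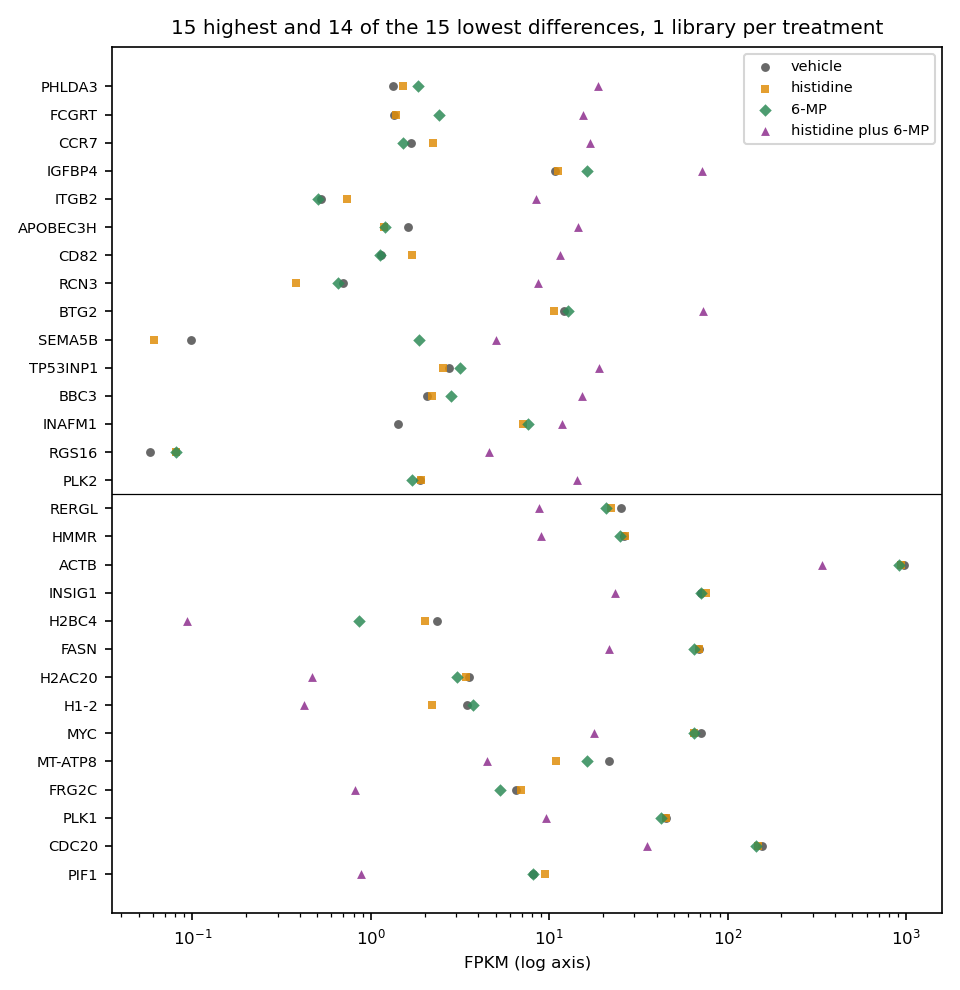
FPKM on a log scale (x axis) in each of the 4 libraries for the 15 highest genes and 14 of the 15 lowest by log2 difference (y axis), with 1 point per library. For most genes the vehicle, histidine and 6-MP points sit together and the combined point lies apart, while INAFM1 has vehicle apart and SEMA5B has 6-MP in between.

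Genes of MHC class II and of the interferon response had medians above that of all genes, while those of MHC class I did not. All 11 measured genes of MHC class II presentation were above 0, 10 of them above the median of all genes, with 3 higher, none lower and a median of 0.65. HLA-DOA, which tunes peptide loading, measured 5.89 FPKM in vehicle, 5.47 with histidine, 5.95 with 6-MP and 16.2 with both (1.32). HLA-DMA, which catalyses that loading, measured 6.87, 6.35, 7.50 and 17.3 FPKM (1.22), and HLA-DPA1, an antigen-presenting chain, 31.6, 31.4, 33.4 and 65.8 FPKM (1.03). HLA-DRA, the α chain of HLA-DR, lay just under the threshold at 205, 181, 266 and 403 FPKM (0.98) and was among the 8 largest gains in FPKM. In MHC class I presentation 2 of 16 were higher, none lower, with a median of 0.094, and 9 of the 16 lay below the median of all genes. The 2 higher ones were FCGRT, listed in this group although it is the IgG salvage receptor named above, and HLA-E. HLA-E, a ligand of natural killer cell receptors, measured 30.5, 31.4, 32.3 and 88.6 FPKM (1.51). HLA genes are highly alike, and how the counting divided reads among them is not given in the sources used here. Interferon-stimulated genes had a median of 0.46, with 33 of 35 above 0, against 6246 of all 9997 genes. Of the 35, 3 were higher (8.57%, against 3.46% of all genes) and none lower. They were HERC5 and USP18, which handle the ubiquitin-like ISG15, at 12.1 and 27.5 FPKM and at 7.44 and 17.1 FPKM in vehicle and combined libraries (1.13 and 1.10), and TRIM22, an antiviral gene that is also a listed p53 target, at 13.9 and 30.2 FPKM (1.07). All 3 interferon genes, HLA-DMA and HLA-DPA1 dropped under the threshold with the wide median-ratio scaling.

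Genes of B-cell identity differed in part. Of 31 measured, 4 were higher and none lower, with a median of 0.17. Among them SPIB reached the level limit only through the combined library, and 3 were higher with the limit set on the histidine and 6-MP libraries. CD37, a tetraspanin of mature B cells, measured 1.06 FPKM in vehicle, 1.47 with histidine, 1.11 with 6-MP and 6.56 with both (1.88). CD9, another tetraspanin, measured 3.20, 2.96, 3.10 and 12.3 FPKM (1.66), and SPIB, an ETS transcription factor, 0.652, 0.980, 0.822 and 4.11 FPKM (1.63). CD72, an inhibitory co-receptor, measured 4.21, 5.53, 3.24 and 12.8 FPKM (1.40), with the single-agent libraries on either side of vehicle. The 14 genes of the pre-B receptor and of recombination had none past the threshold and a median of -0.11. The largest was VPREB3, a pre-B receptor component, with 82.4, 94.98, 91.4 and 155 FPKM (0.91).

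Stress-response genes showed a partial pattern. In the group of ATF4 targets, which respond to amino acid shortage and other stress, 7 of 29 were higher and none lower, with a median of 0.32. ATF3, a stress transcription factor, measured 2.66 FPKM in vehicle, 3.24 with histidine, 2.58 with 6-MP and 11.7 with both (1.80). CEBPB, a bZIP factor, measured 6.34, 9.23, 9.04 and 19.6 FPKM (1.49), DDIT4, an inhibitor of mTORC1, 20.9, 20.5, 22.4 and 60.3 FPKM (1.48), and PPP1R15A, which reverses the translation block, 5.67, 5.98, 6.29 and 16.2 FPKM (1.36). Of the 29, 8 lay below 0, and with the wide median-ratio scaling 4 were higher. Immediate early genes had 3 higher and none lower among 15, with a median of 0.28. They were IER5 (8.75 and 21.7 FPKM in vehicle and combined, 1.22), the AP-1 subunit JUN (1.89 and 4.98 FPKM, 1.05) and the mRNA decay factor ZFP36L1 (15.8 and 33.3 FPKM, 1.03). With the wide median-ratio scaling 0 of the 3 reached the threshold, and with the narrow one 1 did. The NF-kappaB group had 1 higher and 1 lower among 21 (4.76% each, against 3.46% and 0.76% of all genes), with a median of 0.37. TNFAIP2, an inducible target, measured 13.9 FPKM in vehicle and 43.6 in the combined library (1.58), and NFKBIB, an inhibitor of NF-kappaB, 2.61 and 0.634 FPKM (-1.15, from 87 and 19 reads). The 23 genes of the unfolded protein response had none past the threshold, with a median of -0.034. Its largest difference was that of the chaperone HSPA5, at 54.8, 51.6, 52.1 and 31.2 FPKM (-0.79). The 26 NRF2 and glutathione genes had none past it either, with a median of 0.053 and a largest difference of 0.80 in SLC7A11, the cystine importer.

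Among the lower genes, those listed in the mitosis group held the lowest values, in a group whose members were chosen with earlier results known. Of 69 listed, 66 were measured, 9 were lower and none higher, 26 were lower by at least 0.5, against 6.12% of all genes, and the median was -0.39. With the wide median-ratio scaling 17 were lower. PIF1, listed in this group although it is a DNA helicase of telomeres and replication, had the lowest value of any gene. It measured 8.06 FPKM in vehicle, 9.47 with histidine, 8.09 with 6-MP and 0.882 with both (log2 difference -2.27, from 537 and 53 reads). CDC20, the activator of the anaphase-promoting complex, measured 157, 148, 144 and 35.3 FPKM (-2.12). PLK1, the kinase that drives entry into mitosis, measured 44.9, 45.4, 42.0 and 9.63 FPKM (-2.11), and HMMR, a spindle protein, 26.3, 26.6, 24.8 and 9.01 FPKM (-1.45). In all 4 genes the 3 other libraries lay close together and the read ratio of the combined library to vehicle was between 0.110 and 0.343. The members were not alike, and 14 of the 66 lay above 0. The highest, named after its values were seen, was CKAP2L (0.41), and FOXM1, the transcription factor of this programme, also chosen afterwards, was at 0.23.

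The promoters of these genes were read to show which sequence elements they carry, since CHR and CCAAT elements are the known sites of cell-cycle repression by the DREAM complex and of NF-Y. The RefSeq sequence upstream of the transcript start, 250 bases on GRCh38.p14, was available for 8200 of the 9997 genes and was searched on both strands for TTTGAA (the cell cycle genes homology region, CHR) and CCAAT. The sequences below run 5′ to 3′ on the gene's strand. They show the 4 mitotic genes past the threshold that hold TTTGAA and, for contrast, BUB1 (log2 difference -1.06), which holds CCAAT without TTTGAA, as do CCNB1, KIF20A and PSRC1. For CDC20 (chr1:43358881-43358980, plus strand) and BUB1 (chr2:110678064-110678163, minus strand) the 100 bases before the start are given, with matches to TTTGAA and CCAAT on either strand in capitals. For PIF1 (chr15:64825650-64825679, minus), PLK1 (chr16:23678848-23678877, plus) and HMMR (chr5:163460598-163460627, plus) 30 bases around TTTGAA are given, with only that element in capitals.
CDC20: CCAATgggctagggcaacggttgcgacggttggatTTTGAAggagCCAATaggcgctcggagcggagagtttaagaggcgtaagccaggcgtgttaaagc
BUB1: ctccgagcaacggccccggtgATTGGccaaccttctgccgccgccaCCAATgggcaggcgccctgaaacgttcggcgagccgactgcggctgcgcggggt
PIF1: ctgcctctagcaTTTGAAaaatttctagtt
PLK1: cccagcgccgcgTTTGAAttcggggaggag
HMMR: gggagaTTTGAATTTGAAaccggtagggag

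The first base of the TTTGAA nearest the start lay 20 bases before it in PIF1, 65 in CDC20, 29 in PLK1 and 22 in HMMR. These starts are those of RefSeq, and in PIF1, PLK1 and HMMR they lay inside the span of the deposited gene. Of the 8 mitotic genes past the threshold that had a promoter sequence, 4 held TTTGAA and all 8 held CCAAT. Among 55 mitotic promoters 52.7% held TTTGAA, against 7.98% of all promoters, and the share was alike in the 21 mitotic genes lower by at least 0.5 (52.4%) and the other 34 (52.9%). CCAAT was held by 90.5% of these 21 and 64.7% of the 34, against 36.4% of all promoters. Over the whole comparison, CCAAT was in 66.1% of the 59 lower genes with a promoter and in 33.1% of the 260 higher ones. TTTGAA was in 13.6% and 7.69% of the same sets. By group, the share with CCAAT was mixed. It was largest in mitosis (74.5% of 55 promoters) and cholesterol synthesis (71.4% of 21), groups with no higher genes. It was in 58.3% of 24 promoters of ATF4 targets and 42.9% of 28 of p53 targets, groups with no lower genes. It was in 55.3% of 47 DNA replication promoters and in 36.5% of 52 promoters of ribosome biogenesis, a group with no higher genes. These are matches of letters in a fixed window and do not show binding.

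Genes of DNA replication had the median of all genes, 0.11, with members on both sides. Of 55 measured, 36 were above 0 and 19 below 0, and 1 was higher and 1 lower. The lower gene was UHRF1, which maintains DNA methylation, at 442 FPKM in vehicle, 436 with histidine, 440 with 6-MP and 183 with both (-1.27). The higher gene was CDT1, a licensing factor, at 47.4, 49.6, 49.2 and 115 FPKM (1.26). Both genes held the level of vehicle in the single-agent libraries and differed in opposite directions in the combined one. Short of the threshold, MCM2 to MCM7, chosen after their values were seen, were all below 0, from -0.29 to -0.68. CCNE2 (0.92) and ORC1 (0.75), also chosen afterwards, were above 0. The 18 genes of dNTP synthesis had 1 higher, RRM2B, none lower and a median of 0.21, and the 31 genes of homologous recombination had none past the threshold but 27 above 0, with a median of 0.31. The largest of the latter was BRIP1, a helicase of interstrand crosslink repair, at 3.78, 3.51, 3.68 and 6.77 FPKM (0.70). The 20 genes of mismatch and excision repair had XPC as the sole higher gene (5%, near the 3.46% of all genes), none lower and a median of 0.094.

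MYC and the genes of ribosome production were lower together. MYC measured 70.4 FPKM in vehicle, 64.9 with histidine, 65.0 with 6-MP and 17.7 with both (log2 difference -1.93, read interval -2.09 to -1.90). It was the one gene past the threshold among the 10 of its network, whose median was 0.38. Of 60 genes of ribosome biogenesis, 7 were lower and none higher, 38 were lower by at least 0.5, 55 were below 0, and the median was -0.61. The count of lower genes was 18 with the wide median-ratio scaling, 14 with the narrow one and 4 with scaling to the mean FPKM total. RRS1, a ribosome assembly factor, measured 12.1, 11.6, 13.4 and 4.19 FPKM (-1.34). NCL, encoding nucleolin, measured 197, 190, 199 and 90.6 FPKM (-1.12), MYBBP1A, a nucleolar protein, 22.3, 23.1, 22.04 and 10.01 FPKM (-1.08), and WDR43, a small-subunit processing factor, 41.6, 39.6, 43.4 and 19.4 FPKM (-1.06). Not every member was low: POLR1D, RRN3 and FBL, named after their values were seen, were at 0.54, 0.89 and 0.47. The CACGTG E-box, to which MYC binds, was in 11.5% of the 52 ribosome biogenesis promoters and 9.22% of all promoters.

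The structural proteins of the ribosome did not follow. The 78 cytosolic ribosomal protein genes had a median of 0.11, the same as all genes, and several were among the largest gains in FPKM because of their high levels. Of the 78, 70 lay in the highest bin of mean FPKM, whose median was -0.077. RPL3 measured 511 FPKM in vehicle and 758 in the combined library (0.57), RPS27 477 and 650 (0.44), RPL41 925 and 1102 (0.25), RPLP0 715 and 838 (0.23), and RPS12 996 and 1159 (0.22). EEF2, the translocation factor of elongation, measured 1005 and 1183 FPKM (0.24). With the wide median-ratio scaling RPLP0, RPS12 and EEF2 changed sign, to -0.014, -0.025 and -0.0081. RPS25 was the one past the threshold, at 1.61 and 5.04 FPKM (1.21, from 34 and 96 reads), far below its relatives in level, and how its reads and those of near-identical copies were divided is not given in the sources used here. The 72 mitochondrial ribosomal protein genes had none past the threshold and a median of -0.15, with the largest difference in MRPS34 (-0.97). The 23 aminoacyl-tRNA synthetases had 1 lower, VARS1, at 25.3 and 11.7 FPKM (-1.04), none higher and a median of -0.23.

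Chaperone and proteasome genes also lay below the median of all genes. Of 29 heat shock and chaperonin genes, 2 were lower, none higher, 13 were lower by at least 0.5, and the median was -0.42. CCT5, a subunit of the chaperonin that folds actin and tubulin, measured 97.5 FPKM in vehicle, 90.7 with histidine, 92.6 with 6-MP and 41.4 with both (-1.22), and TRAP1, the mitochondrial HSP90, 26.3, 28.2, 27.2 and 11.3 FPKM (-1.15). The single-agent libraries lay near vehicle in both. The 30 proteasome genes had none past the threshold, a median of -0.26 and 25 below 0, with the largest difference in PSMA3 (-0.81).

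Lipid synthesis was lower at its main enzymes. In the cholesterol group 6 of 26 were lower, none higher, 14 were lower by at least 0.5, and the median was -0.57. INSIG1, the sterol-sensing retention factor of SREBP, measured 70.6 FPKM in vehicle, 75.9 with histidine, 71.1 with 6-MP and 23.3 with both (-1.56). HMGCS1, an early enzyme of the mevalonate route, measured 25.8, 24.4, 28.9 and 9.87 FPKM (-1.30), and DHCR7, the last step of cholesterol synthesis, 19.6, 19.1, 19.3 and 7.95 FPKM (-1.20). In each of these the 3 other libraries lay close together. CCAAT was in 71.4% of the 21 cholesterol promoters, against 36.4% of all promoters and 58.3% of those of ATF4 targets. Fatty acid synthesis had 4 lower and none higher among 18, with a median of -0.36. FASN, the fatty acid synthase, measured 68.7, 69.4, 65.1 and 21.7 FPKM (-1.62, read interval -1.72 to -1.60). The other 3 lower genes of that group lay close to the threshold, and with scaling to the mean FPKM total 2 of the 4 were lower. They were MID1IP1, a regulator of acetyl-CoA carboxylase (63.4 and 29.7 FPKM in vehicle and combined, -1.07), ACLY, which makes cytosolic acetyl-CoA (98.6 and 48.2 FPKM, -1.02), and FADS2, a fatty acid desaturase (42.1 and 20.4 FPKM, -1.01).

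Transcripts of the mitochondrial genome were lower throughout. All 13 protein-coding genes were below 0, 12 by at least 0.5 and 3 by at least 1, with a median of -0.78, against -0.093 with histidine alone. By at least 1, 7 were lower with the wide median-ratio scaling and 5 with the narrow one. MT-CO3, a subunit of cytochrome c oxidase, measured 4672 FPKM in vehicle, 4205 with histidine, 4288 with 6-MP and 2277 with both (-1.04), and MT-ATP6, a subunit of the ATP synthase, 1499, 1386, 1341 and 715 FPKM (-1.07). MT-CO1 was the least shifted, at 6448, 6174, 5957 and 4610 FPKM (-0.48). In all 3 the combined library was lowest and vehicle highest. MT-ATP8, which overlaps MT-ATP6, had 64, 35, 52 and 12 reads (-2.04, read interval -3.29 to -1.36). How reads of overlapping genes were divided is not given in the sources used here. MT-CO2 (4425 and 2652 FPKM in vehicle and combined), MT-ND4 (2356 and 1445), MT-CYB (1635 and 866) and MT-ND2 (1358 and 719) were likewise among the 8 largest losses in FPKM. The 71 nuclear genes of the respiratory chain had none past the threshold, a median of -0.17 and 51 below 0. ATP5MC1, a ring subunit of the ATP synthase, was the most different at 31.0 and 16.3 FPKM (-0.89). Fewer cells with these transcripts and less of them per cell cannot be told apart in bulk RNA.

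Cytoskeletal actin genes differed in opposite directions. ACTB, cytoplasmic β-actin, measured 976 FPKM in vehicle, 937 with histidine, 916 with 6-MP and 340 with both (-1.52, from 61545 and 19294 reads). ACTG1, cytoplasmic γ-actin, measured 730, 709, 765 and 1079 FPKM (0.56) and was the largest gain in FPKM. The pair are close paralogs, and their differences, of opposite sign, are both larger in size than the largest scaling shift, 0.24. Among 41 actin cytoskeleton genes 2 were higher and 1 lower, with a median of -0.045. The higher ones were GSN, the severing protein gelsolin (1.29 and 4.26 FPKM in vehicle and combined, 1.20), and CORO1B, a coronin (2.45 and 6.10 FPKM, 1.04), which was under the threshold with both median-ratio scalings. A count of 2 in 41 is near the 3.46% of all genes. The 11 tubulins had none past the threshold, a median of -0.23 and TUBA1C as the most different (27.6 and 15.5 FPKM, -0.79).

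Replication-dependent histone genes were low and thinly counted. Of 24 listed, 9 were measured above the level limit, 5 were lower, none higher, and the median was -1.10. Their messages mostly lack poly(A) tails, and the libraries were made with a kit for mRNA. H1-2 had 36 reads in vehicle, 25 with histidine, 42 with 6-MP and 4 with both. H2AC20 had 25, 26, 23 and 3 reads, H2BC4 28, 26, 11 and 1, and H2BC9 113, 80, 70 and 21. The read ratio of H2BC4 was -4.66 on the log2 scale with an interval from -10.0 to -2.06. The combined library was the lowest in all 4 genes, from few reads. The 9 replication-independent histone genes had none past the threshold, with a median of -0.30. CENPA, the centromeric histone, was the most different (25.7 and 13.7 FPKM, -0.86). Of the 15 lowest genes, 2 belonged to no group. FRG2C, a member of a multicopy family whose reads may be shared with its copies, had 195, 223, 170 and 22 reads (-2.05). RERGL, a Ras-related GTPase, measured 25.3, 22.1, 20.7 and 8.71 FPKM (-1.44).

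Nucleotide metabolism, which histidine and 6-MP both touch, was shifted by moderate amounts. The 14 genes of de novo purine synthesis had none past the threshold, but 13 were below 0 and 6 lower by at least 0.5, with a median of -0.43, against -0.027 with histidine alone. PFAS, which uses glutamine in the pathway, was the most different, at 25.2 FPKM in vehicle, 25.7 with histidine, 24.8 with 6-MP and 13.1 with both (-0.90). The 18 genes of folate one-carbon metabolism had none past the threshold and a median of -0.24, the most different being MTHFD1L, a mitochondrial folate enzyme (17.4 and 11.2 FPKM, -0.60). The 17 genes of thiopurine metabolism had a median of 0.046 and none was lower. The 8 members below 0, named after their values were seen, included the transporter SLC29A1 (-0.80) and IMPDH1 (-0.76), while IMPDH2 was at 0.71.

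None of the 5 genes of histidine breakdown reached the level limit, so they are given by their reads. AMDHD1 had 14 reads in vehicle, 30 with histidine, 16 with 6-MP and 43 with both, FTCD had 4, 4, 2 and 16, and HAL, the first enzyme, had 9, 22, 8 and 10. HDC, which makes histamine, had 0, 0, 0 and 5, and UROC1 had 0, 0, 1 and 1. AMDHD1 had the most reads in the 2 libraries with added histidine and HAL in the library with histidine alone, from few reads throughout. The study singles out SIRT5, a mitochondrial desuccinylase, and HINT1, a nucleotide hydrolase. SIRT5 measured 3.77 FPKM in vehicle, 3.48 with histidine, 3.59 with 6-MP and 4.76 with both (0.27). HINT1 measured 24.1, 24.7, 25.2 and 29.95 FPKM (0.31). Both were the highest in the combined library, and both read intervals, 0.18 to 0.50 and 0.24 to 0.40, lie far below the threshold. An interval that excludes 0 was found for 7073 of the 9997 genes (70.8%), and with the wide median-ratio scaling the log2 differences were 0.077 and 0.070. The 23 genes of sirtuins and acylation had none past the threshold and a median of 0.029, with KAT2B as the most different (0.54).

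The remaining groups were glycolysis, polyamines and lysosome and autophagy. The 24 glycolysis genes had none past the threshold, a median of -0.10 and PGK1 as the most different (136 and 68.0 FPKM in vehicle and combined, -0.99). The 11 polyamine genes had 1 higher, the spermine oxidase SMOX (4.48 and 11.5 FPKM, 1.20), which was under the threshold with the wide median-ratio scaling, none lower and a median of -0.21. The 43 lysosome and autophagy genes had 1 higher (2.33%, below the 3.46% of all genes), the sialidase NEU1 (2.20 and 6.497 FPKM, 1.23), none lower and a median of 0.20.

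**Figure D4:**
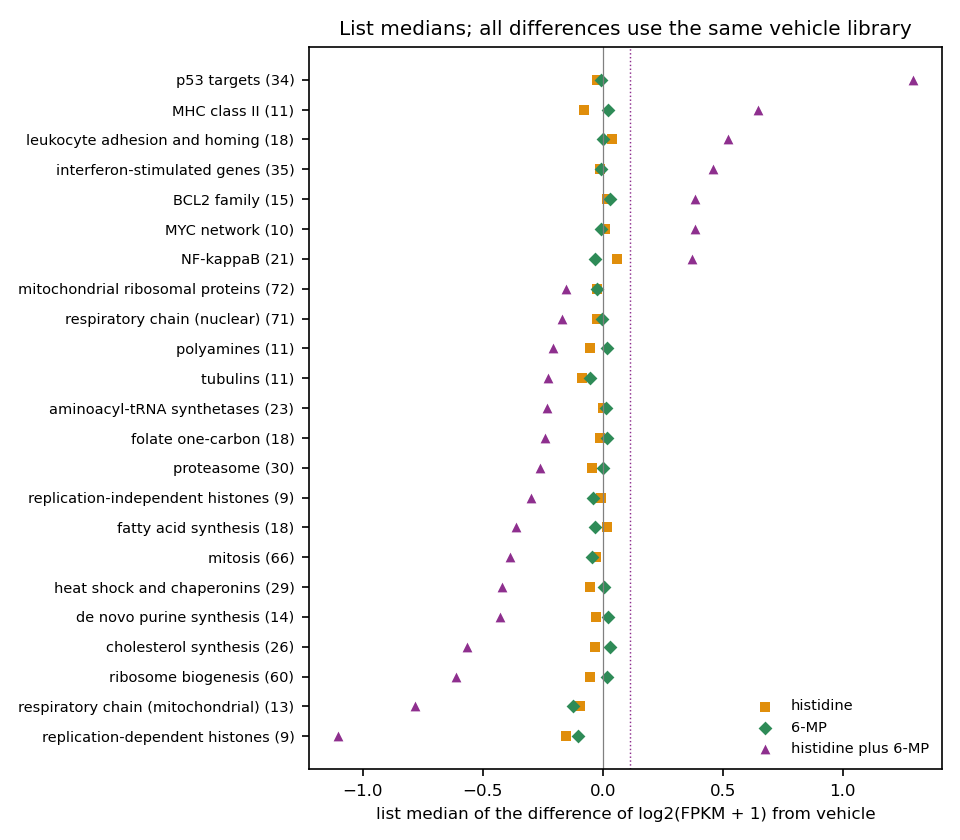
Median log2 difference against vehicle (x axis) for the combined, histidine and 6-MP libraries (colours and shapes), which share the vehicle library, in the 23 gene groups (y axis, number of genes in brackets) whose combined median lies at least 0.25 from that of all genes (dotted line). The single-agent medians lie near 0 and the combined medians spread from -1.10 to 1.29.

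Of the 346 higher genes, 61 belonged to any of the 42 groups, and of the 76 lower genes, 41 did, so most higher genes have no group here. Among the 41 groups with measured genes, the sign of the median changed under the wide median-ratio scaling in 10. These were DNA replication, dNTP synthesis, cytosolic ribosomal proteins, thiopurine metabolism, mismatch and excision repair, B-lineage identity, MHC class I, lysosome and autophagy, NRF2 and glutathione, and sirtuins and acylation. All 41 kept their side of the median of all genes there, but scaling moves that median along with the groups, so this was nearly fixed. With no filter on low values 38 kept their side. With a mean FPKM of at least 5, 36 did, and the others were DNA replication, cytosolic ribosomal proteins, thiopurine metabolism, mismatch and excision repair, and MHC class I. Higher genes were a larger share of the 2500 shortest genes (5.92%) than of the 2499 longest (1.60%), and lower genes were too (1.16% and 0.36%). On chromosome 19, 41 of 794 genes were higher (5.16%), on chromosome 22 5.33%, and on chromosome 15 2.05%. The part of length and chromosome in the differences between gene groups was not tested.

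Outside protein-coding genes, 1368 long noncoding RNA genes passed the same level limit. With both agents 142 were higher (10.4%) and 18 lower (1.32%), with histidine 17 (1.24%) and 7 (0.512%), and with 6-MP 6 (0.439%) and 5 (0.365%). The level limit takes in the combined library, so some could pass it through that library alone, and their number was not counted. The 2500 protein-coding genes of lowest mean FPKM, of a like median level, had 6.04% higher and 0.28% lower with both agents.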

How the data were processed

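Gene expression was measured by RNA-seq in 4 libraries of Reh-6-MPR cells, 1 for each treatment as the sample labels give it. The authors deposited a table of FPKM values, which a sequencing company had produced. The submitters' processing notes name Trimmomatic, HISAT2, Cufflinks and HTSeq and the builds hg38 and GRCh38, without roles or versions. Since FPKM is relative to the library total, a few abundant genes can shift all others. Reads were recovered from the steps of the FPKM values. They came out whole, within 0.002 of a whole number, for 29831 of 29833 genes, and summed to 99.9% of the denominators.

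Protein-coding genes whose mean FPKM reached 1 were compared by log2(FPKM + 1), with a threshold of 1 and no p-value, since a comparison of 1 library with 1 cannot be tested. The DESeq2 analysis that the authors used was not repeated. Read ratios carry exact Clopper-Pearson 95% intervals for counting error only. Depth was 12899122 to 15486376 reads. The 42 gene groups, 5 marker lists and the members were chosen with earlier results of these data known. Genes were named as the 15 highest and 15 lowest, the 8 largest gains and losses in FPKM, up to 4 members past the threshold per group (otherwise its largest), and those the study names. A gene with under 20 reads in both libraries together is given by its reads. Some genes that this rule names are not reported here. Promoters came from RefSeq on GRCh38.p14. Alternatives were other pseudocounts, filters, thresholds and scalings, of which 1 was added after the data were seen. Scripts ran in Python 3.11.15 with numpy 2.4.6, pandas 2.3.3, scipy 1.17.1 and matplotlib 3.10.9 and were tested on simulated data.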

Additional observations from a re-analysis of the deposited data

Results flagged for a closer look

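Long noncoding RNA genes lie outside the comparison of protein-coding genes and had counts past the threshold above those of the single-agent libraries, which is why they are listed here. Of 1368 whose mean FPKM reached 1, 142 were higher by at least 1 in the combined library than in vehicle (10.4%) and 18 lower (1.32%), against 17 higher and 7 lower with histidine and 6 higher and 5 lower with 6-MP, all set against the same vehicle library. The read interval, which comes from the same reads as the calls, excluded 0 on that side for 140 of the 142 and 15 of the 18. Their median log2 difference was 0.31, and their median level was 2.09 FPKM. The 2500 protein-coding genes of lowest mean FPKM, at a median of 2.24 FPKM, had 6.04% higher, 0.28% lower and a median log2 difference of 0.25. PURPL, a p53-regulated noncoding RNA, measured 2.88 FPKM in vehicle, 2.65 with histidine, 3.27 with 6-MP and 19.1 with both (log2 difference 2.37). Among those with a gene symbol and at least 20 reads in both libraries together, the lowest was SNHG4. It is a host of small nucleolar RNA and measured 21.5, 21.4, 20.7 and 6.96 FPKM (-1.50). DANCR, chosen after its values were seen, measured 8.54, 8.35, 8.31 and 3.53 FPKM (-1.07). The level limit took in the combined library, so an RNA could pass through it alone, and the number that did was not counted. LINC02846, PRKAR1B-AS1 and TSPEAR-AS1 were under 1 FPKM in every other library, while PURPL was above 1 in all. They measured 0.157, 0.860 and 0.415 FPKM in vehicle and 4.77, 6.36 and 4.28 in the combined library. The part that low counts and this limit play in these numbers was not tested.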

How the results depend on the processing

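The count of 422 genes past the threshold (346 higher, 76 lower) moved to 753 (629 and 124) with a pseudocount of 0.1 FPKM, to 228 in all and 164 higher with a mean FPKM of at least 5, to 110 (98 and 12) at a threshold of 1.5, and to 2258 (1646 and 612) at 0.5. With the median ratio over all genes above 0 in every library 204 were higher and 183 lower, and with that over the compared genes, added after the data were seen, 120 were lower. No filter on low values, a filter on the histidine and 6-MP libraries alone, and scaling to the mean FPKM total kept all 3 counts within 1.5 times. Of the 81 named genes past the threshold, 67 passed it with the first median ratio, 74 with the second and 79 with the total scaling. None of these 81 changed sign under any of the alternatives, and none could. Their differences were at least 1 in size, the largest scaling shift was 0.24, and filters and pseudocounts do not change a sign. Of all 109 genes named by rule, EEF2, RPLP0 and RPS12 changed sign with the first median ratio. Genes at low FPKM rest on few reads at this depth. No paired analysis was possible because a group holds 1 sample, and leaving out a replicate was not possible either.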

Other observations

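Some genes outside the naming rule are given here, chosen after their values were seen. The 4 near-identical copies FAM72A, FAM72B, FAM72C and FAM72D were all lower, at 5.83 and 1.999, 15.5 and 5.16, 4.96 and 1.36, and 5.56 and 1.79 FPKM in vehicle and combined libraries (log2 differences -1.19, -1.42, -1.34 and -1.23). Reads may be shared among these copies, so they do not count as independent genes. C4orf48, encoding a small secreted peptide, measured 6.56 FPKM in vehicle, 39.8 with histidine, 42.0 with 6-MP and 29.7 with both, so that vehicle was the library apart, as for INAFM1.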
